A study of Mus musculus with 8 samples.

Results

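The broadest H3K4me3 domains of otic progenitors were the 374 widest peaks, or 5%, among the 7472 H3K4me3 peaks listed for proliferating iMOPs. They were chosen by their width alone (end minus start, ties by chromosome and start), so their width in progenitors describes the choice and is no result. iMOPs (immortalized multipotent otic progenitors) are a mouse line, here wild-type and with the listed treatment "none", that was kept proliferating in DMEM/F12 with B27 and 20 ng/ml bFGF or turned into neurons in Neurobasal medium with N21 and 1 µM K03861. H3K4me3, CHD4 and p300 were profiled by CUT&Tag, an assay in which an antibody brings a transposase to its target and the DNA cut there is sequenced, with 1 library of 500000 cells for each antibody and state. The 2 IgG libraries, which would give a background level, were not analysed here. With 1 library per group there is no replicate check on any difference between the states and no p-value. Beside a share of domains stands its 95% interval (exact, Clopper-Pearson), for counting error only.

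H3K4me3 is laid down at active promoters, where it usually forms a peak about the transcription start. In many cell types a small set of promoters carries the mark over a far longer stretch that reaches into the gene body, and such broad domains are known to lie often at regulators of cell identity. CHD4 is the ATPase of the NuRD complex, which slides nucleosomes and removes histone acetylation, whereas p300 is an acetyltransferase of active enhancers and promoters. In the developing inner ear, otic progenitors depend on factors such as Sox2 and on Notch signalling, and give rise to spiral ganglion neurons and to the sensory epithelium.

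The DNA before the start of 8 genes is shown because their domains cover the patterns that the domains took between the states: wide in both states (Sox2, Pou3f3, Dll1, Cdkn1b), much narrower in neurons (Tle2, Irf2bpl), or not listed in neurons (Id3, Gadd45b). Each line holds the 250 bases before the annotated start, from RefSeq on GRCm38.p6, whose coordinates are those of the mm10 build of the files. They read 5′ to 3′ along the gene, with capitals marking each CG and the motif TATAAA, searched on both strands.
Sox2, chr3:34649745-34649994, plus strand: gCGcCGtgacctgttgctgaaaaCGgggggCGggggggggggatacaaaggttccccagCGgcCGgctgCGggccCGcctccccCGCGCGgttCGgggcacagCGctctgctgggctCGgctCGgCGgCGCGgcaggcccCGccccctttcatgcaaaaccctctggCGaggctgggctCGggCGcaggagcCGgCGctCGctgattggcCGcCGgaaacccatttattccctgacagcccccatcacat
Pou3f3, chr1:42695518-42695767, plus strand: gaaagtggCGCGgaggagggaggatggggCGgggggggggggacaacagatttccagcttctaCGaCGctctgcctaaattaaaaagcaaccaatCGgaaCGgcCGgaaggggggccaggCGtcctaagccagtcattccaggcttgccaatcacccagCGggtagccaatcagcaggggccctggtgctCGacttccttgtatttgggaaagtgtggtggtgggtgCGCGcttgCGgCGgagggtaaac
Dll1, chr17:15376933-15377182, minus strand: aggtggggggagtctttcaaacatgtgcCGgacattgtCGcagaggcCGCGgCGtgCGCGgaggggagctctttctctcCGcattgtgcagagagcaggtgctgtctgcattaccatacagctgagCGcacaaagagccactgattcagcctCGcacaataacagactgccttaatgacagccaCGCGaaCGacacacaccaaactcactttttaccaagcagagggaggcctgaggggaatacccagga
Cdkn1b, chr6:134920151-134920400, plus strand: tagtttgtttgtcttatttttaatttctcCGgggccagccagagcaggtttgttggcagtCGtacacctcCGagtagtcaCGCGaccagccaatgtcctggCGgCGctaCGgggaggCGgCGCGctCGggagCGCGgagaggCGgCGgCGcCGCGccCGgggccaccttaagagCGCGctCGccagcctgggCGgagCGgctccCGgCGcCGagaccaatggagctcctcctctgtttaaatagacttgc
Tle2, chr10:81575037-81575286, plus strand: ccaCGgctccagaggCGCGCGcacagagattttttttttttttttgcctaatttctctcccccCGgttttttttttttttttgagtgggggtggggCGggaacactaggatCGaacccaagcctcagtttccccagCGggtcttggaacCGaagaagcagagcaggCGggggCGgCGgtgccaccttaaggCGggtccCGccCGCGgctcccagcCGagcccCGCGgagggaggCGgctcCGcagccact
Irf2bpl, chr12:86884815-86885064, minus strand: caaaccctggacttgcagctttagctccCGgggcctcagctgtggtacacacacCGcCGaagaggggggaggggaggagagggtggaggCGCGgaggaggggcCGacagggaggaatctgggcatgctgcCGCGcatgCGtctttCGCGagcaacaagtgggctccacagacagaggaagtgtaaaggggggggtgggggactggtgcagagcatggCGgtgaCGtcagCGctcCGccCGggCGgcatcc
Id3, chr4:136143572-136143821, plus strand: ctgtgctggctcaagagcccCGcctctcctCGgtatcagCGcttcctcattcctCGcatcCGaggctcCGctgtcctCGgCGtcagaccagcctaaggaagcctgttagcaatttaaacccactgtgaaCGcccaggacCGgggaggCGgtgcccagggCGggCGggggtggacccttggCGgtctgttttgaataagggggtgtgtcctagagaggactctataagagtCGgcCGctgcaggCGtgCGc
Gadd45b, chr10:80929841-80930090, plus strand: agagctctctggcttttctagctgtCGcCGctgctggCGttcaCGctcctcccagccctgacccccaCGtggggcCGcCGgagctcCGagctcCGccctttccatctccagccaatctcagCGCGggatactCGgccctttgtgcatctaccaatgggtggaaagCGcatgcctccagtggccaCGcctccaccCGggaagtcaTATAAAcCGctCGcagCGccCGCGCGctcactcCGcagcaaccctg
These sequences held between 13 CG pairs before Dll1 and 28 before Cdkn1b, and TATAAA was found before Gadd45b alone among the 8. Of the 491 genes at the domains, 388 had an entry in this promoter table. Over the table's full 300 bases (250 before and 50 after the start), their median GC content was 63.3% and their median ratio of observed to expected CG was 0.804. Genes at H3K4me3 peaks outside the widest 10% had medians of 63.7% and 0.837, and genes with no progenitor H3K4me3 had 51.0% and 0.298. TATAAA occurred in 25 of the 388 (6.44%, interval 4.21 to 9.36), against 13.2% of all 17491 promoters. It occurred in 4.82% (4.29 to 5.39) of genes at those narrower peaks. Of 336 genes at the peaks next in width after the domains, 8.93% (6.11 to 12.5) had it. GC content and CG ratio were thus close between broad and narrower peaks. A match to such a motif is a description of the letters and not a site.

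Mature miRNAs are also encoded in the domains, and 3 of them stand in very wide ones. Of 1005 hairpins in RefSeq, 25 lay in 22 of the domains (2.49% of hairpins) and 83 in other progenitor H3K4me3 peaks. The lines give the mature sequences with the seed (bases 2 to 8) in capitals.
miR-9-5p, chr13:83738821-83738843, plus strand: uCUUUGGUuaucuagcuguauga
miR-191-5p, chr9:108568325-108568347, plus strand: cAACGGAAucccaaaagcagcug
miR-425-5p, chr9:108568789-108568811, plus strand: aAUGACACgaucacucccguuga
miR-9, an miRNA of neural progenitors and neurons, comes here from Mir9-2, in the third widest domain. miR-191 and miR-425 are made from neighbouring hairpins in a domain at Dalrd3, Ndufaf3 and Wdr6 that measured 17050 bp in progenitors and 16500 bp in neurons. Their seeds differ from each other.

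The maps of the listed peaks about these 8 starts show how far the mark ran. At Sox2, the otic and neural progenitor regulator, H3K4me3 reached from 3944 bp before the start to 22355 bp after it, although the gene ends 2466 bp after its start. In neurons the peak over the start ran from 2344 bp before to 17605 bp after it, and a separate peak of 7800 bp stood further upstream. CHD4 lay in 2 blocks in both states, one over the start and one of 14800 bp in progenitors and 13050 bp in neurons over the downstream part. p300 had the same layout in progenitors, and in neurons it was listed over the downstream block (9100 bp) but not over the start.

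At Pou3f3, a POU factor of neural progenitors, the domain ran from 13167 bp before to 19682 bp after the start. Its 3 CHD4 peaks in progenitors (4600, 7050 and 3150 bp) gave way to 1 of 16950 bp in neurons, and its 3 p300 peaks had no neuron counterpart. Dll1, a Notch ligand, had a domain of 11750 bp that became 15350 bp in neurons by reaching further downstream, and CHD4 and p300 lay over nearly all of the progenitor span in both states. In neurons p300 followed the mark to 8681 bp after the start, while CHD4 ended at 5531 bp. Cdkn1b, which encodes the cell cycle inhibitor p27, kept a wide mark in both states, split into 2 peaks (9900 and 6050 bp) in neurons, and had CHD4 but no p300 over it.

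The other 4 genes show where the mark was not listed in neurons. The domain of 19000 bp at Tle2 and Tle5, which encode proteins of the Groucho family, ran from -16786 to 2213 bp about the Tle2 start. In neurons it was a peak of 3550 bp at the end far from Tle2, so that no H3K4me3 was listed at the Tle2 start. At Irf2bpl, the upstream part was missing and 3850 bp over the gene remained. At Id3, an inhibitor of bHLH factors, and Gadd45b, a stress and demethylation gene, no neuron H3K4me3 peak overlapped the domain at all. CHD4 nevertheless covered 8000 bp of the Id3 domain and 14800 bp of the Gadd45b domain in neurons, and 6400 bp of the latter also lay under neuron p300. The Gadd45b domain was weak in progenitors already. Within the progenitor H3K4me3 list its highest signal was at a percentile of 2.98 and its mean per base at 1.26, against 73.4 and 16.1 for Id3.

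**Figure D1:**
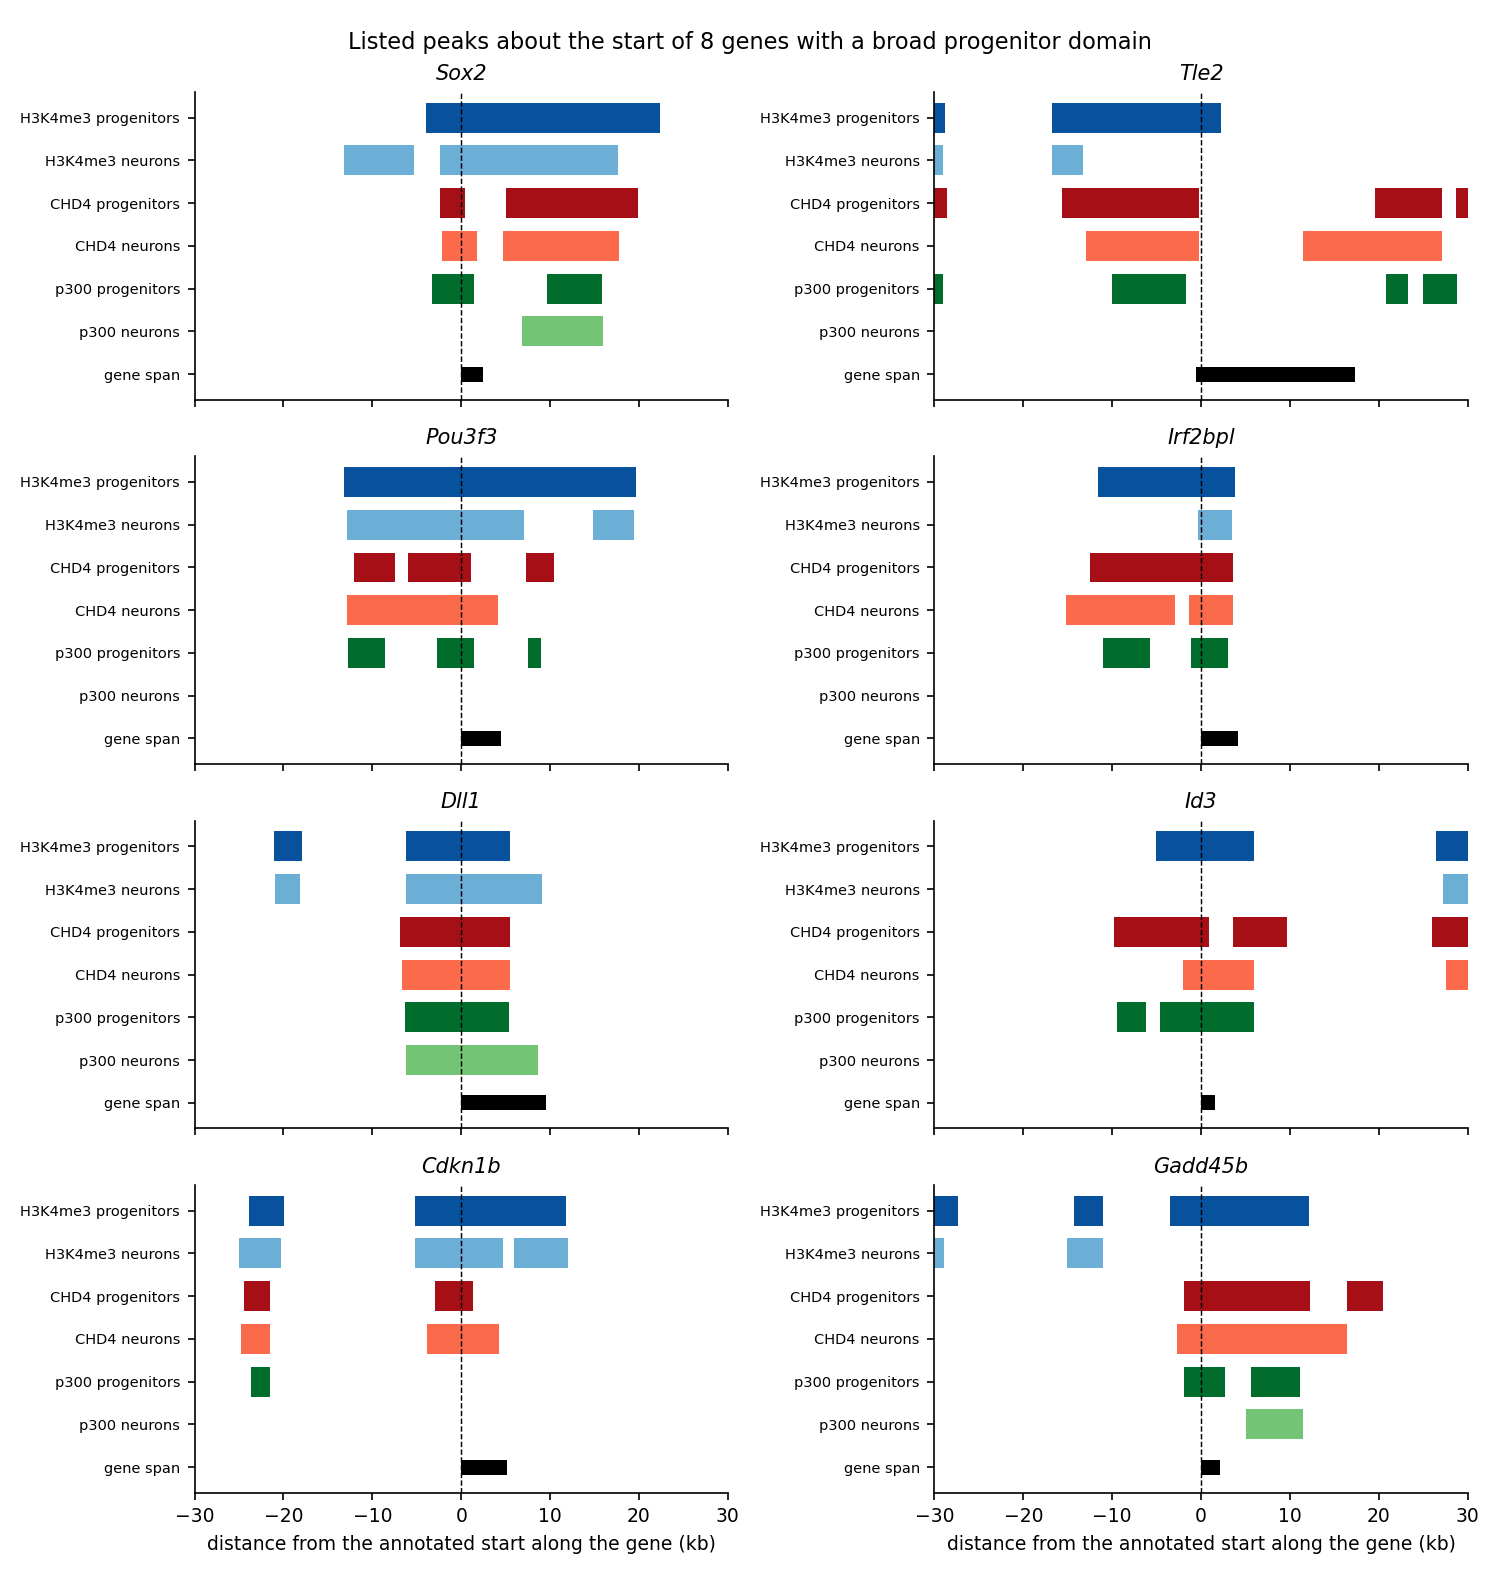
Peaks listed for H3K4me3, CHD4 and p300 in progenitors (dark) and neurons (light) within 30 kb of the annotated start (dashed line) of 8 genes, with distance in kb along the gene's strand and the gene span in black. H3K4me3 is listed over the starts of Sox2, Pou3f3, Dll1, Cdkn1b and Irf2bpl in both states, and over those of Tle2, Id3 and Gadd45b in progenitors but not in neurons.

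The domains measured from 7700 to 36550 bp, with a median of 9350 bp (quartiles 8350 and 11325), where the median of the whole list was 3700 bp. Together they covered 3.91 Mb, or 12.5% of all bases in the list. The last domains inside the limit lay at Pald1, Slc25a29 and Ddx39b and the first peaks outside at Tubb4b, at Cdk2ap1 and at a place on chromosome 7 with no coding start. All 6 measured 7700 bp, and their neuron to progenitor width ratios were 0.79, 1.07 and 1.21 inside and 0.85, 0.70 and 0 (not listed) outside. Since signal can be ranked only within a list, the domains are placed by percentile: they stood at a median of 55.6 for the highest signal, of 21.8 for the mean signal per base and of 92.4 for the total signal. They were thus wide more than tall.

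Protein-coding genes were tied to a domain when an annotated start lay in it or within 1 kb. By this rule 491 of 21883 genes (2.24%) were at a domain, which is the share to hold each gene group against. Of the 374 domains, 197 had 1 gene, 91 had 2, 34 had 3 or more and 52 had none. Domains with at least 2 genes made up 33.4% (28.7 to 38.5), against 16.9% (16.1 to 17.8) of all progenitor H3K4me3 peaks, and a longer region meets more starts by its length. Chromosome 11 held 57 of the domains (15.2%), against 9.06% of all peaks in the list.

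The labels of the cells were held against fixed marker genes. Of 13 progenitor markers, 10 had H3K4me3 at the start in progenitors and 4 (Sox2, Id1, Id2, Myc) in neurons, and 4 of the 13 lay at a broad domain. Of 13 neuron markers, 3 were listed in progenitors and 4 in neurons (Tubb3, Map2, Elavl3, Elavl4), so that 9, among them Dcx, Stmn2, Neurod1 and Rbfox3, had no listed H3K4me3 in the cells labelled neurons. Markers of hair cells, mesenchyme, blood and endothelium, liver, pluripotency and epithelium had no broad domain, and of 16 glia markers Olig2 had one.

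Transcription factor genes were frequent at the domains. Taking 8 families of them together (Sox, forkhead, Hox, other homeobox, basic helix-loop-helix, zinc finger, nuclear receptor, and a mixed group of ETS, TEAD, NFI, SMAD and T-box genes), 46 of 518 genes (8.88%, 6.57 to 11.7) were at a domain, against 445 of 21365 other genes (2.08%, 1.90 to 2.28). Among genes with any progenitor H3K4me3, the shares were 22.7% (17.1 to 29.0) and 5.57% (5.07 to 6.09). The families were far from even: Hox genes had 0 of 39 starts at a domain and forkhead genes 1 of 44, whereas basic helix-loop-helix genes had 12 of 84. The 46 domains at these genes and the other 328 had median width ratios of 0.874 and 0.870. The family lists, like all gene lists here, were chosen with earlier results of these data known.

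In neurons the domains were within 1.5-fold of their progenitor width about as often as other H3K4me3 peaks. The neuron width is the summed width of all neuron H3K4me3 peaks that overlap the domain by at least 1 bp, and so counts their bases outside the domain too. Its ratio to the progenitor width had a median of 0.870 over all 374 domains (quartiles 0.594 and 1.02) and of 0.922 over the 332 with a neuron peak. Within 1.5-fold lay 249 domains (66.6%, 61.5 to 71.3), against 63.3% of all progenitor peaks and 70.6% of the 374 that came next by width. A further 73 (19.5%, 15.6 to 23.9) had narrowed at least 1.5-fold, which is true of 2.90% of all progenitor peaks. No neuron peak was listed at 42 (11.2%, 8.21 to 14.9), against 26.0% of all progenitor peaks, and 10 (2.67%, 1.29 to 4.86) had widened at least 1.5-fold, against 7.79%. Narrowed or without a neuron peak, as 1 class, were 115 domains (30.7%, 26.1 to 35.7), which is close to the 28.9% of all peaks. The domains thus differed from the whole list in how this class divided rather than in its share. As they were chosen for their width in progenitors, a narrower neuron width follows in part from the choice. In 19 domains (5.08%) the mark was split into at least 2 neuron peaks, against 0.308% of all peaks, where a longer region meets more peaks by its length.

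**Figure D2:**
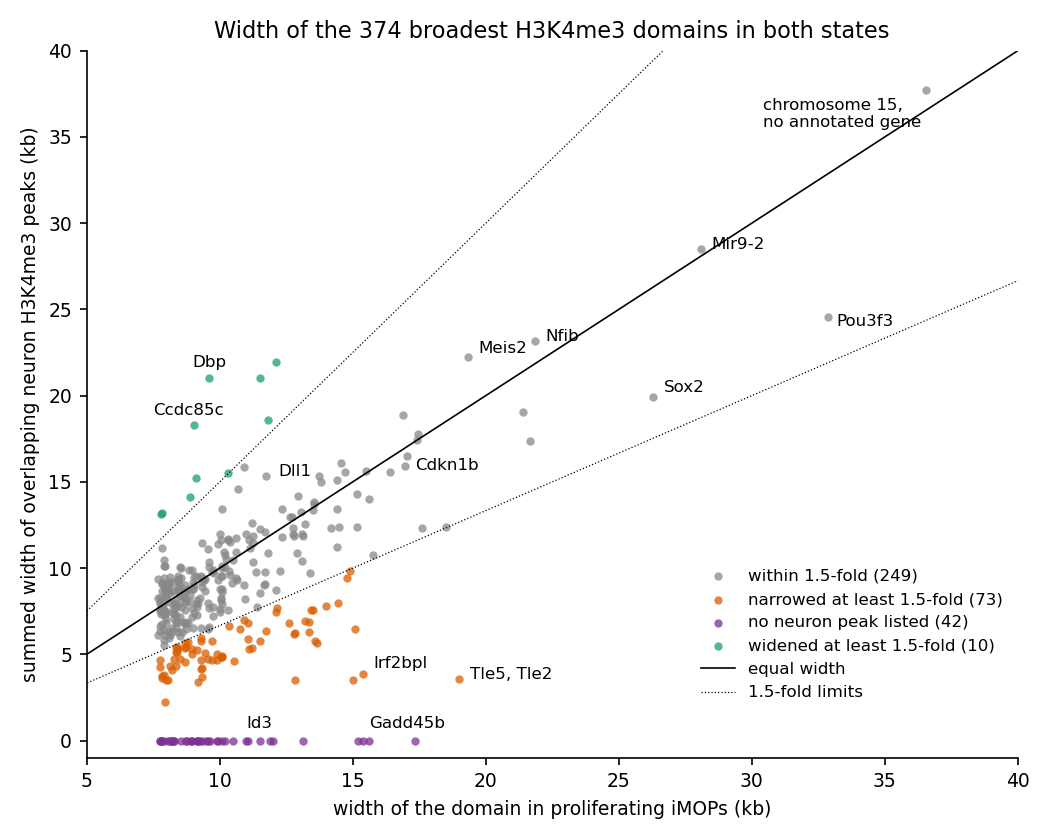
Width of each of the 374 domains in progenitors (x axis, kb) against the summed width of the neuron H3K4me3 peaks that overlap it (y axis, kb), with the line of equal width and the 1.5-fold limits dotted. Most points lie below the line of equal width, 42 stand at 0, and the widest domains with a gene (Pou3f3, Sox2, Nfib, Meis2) stay wide in neurons. Points below the line follow in part from the choice by progenitor width.

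Narrowing was about as frequent when the choice was made the other way round. The widest 5% of the neuron list were 281 peaks of at least 8300 bp, and in progenitors 58 of them (20.6%) were narrower by at least 1.5-fold, with a median progenitor to neuron ratio of 0.879. The shares that had no peak in the other state were 11.2% and 2.14%, since 6 of the 281 had no progenitor peak. The progenitor list is the longer one, with 7472 peaks against 5625. When it was trimmed by total signal to the size of the neuron list, 8.54% of its widest 5% had no neuron peak. How far list length sets the difference between the 2 directions was not tested. Of the progenitor domains, 165 (44.1%) overlapped one of the 281 widest neuron peaks. The 374 peaks that came next by width had no neuron peak in 58 cases (15.5%) and had narrowed in 8.02% (5.48 to 11.3), with a median ratio of 0.939.

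The widest domain of all, 36550 bp at chr15:85651501-85688050, overlapped no annotated gene of any kind. It measured 37750 bp in neurons, and CHD4 covered 16450 bp of it in progenitors and 20100 bp in neurons, p300 13700 and 12450 bp. The second was that of Pou3f3 (32850 bp, then 24550 bp), followed by the Mir9-2 domain, which also holds the long noncoding gene C130071C03Rik (28100 bp, then 28500 bp), and by Sox2 (26300 bp, then 19950 bp). Nfib, a nuclear factor I gene of neural and glial development, had 21850 bp in progenitors and 23150 bp in neurons. Meis2, a TALE homeobox gene, had 19350 and 22250 bp.

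Several of the next domains each held the starts of more than 1 gene. The domain of 21650 bp at Ifi30, Mpv17l2 and Pik3r2 measured 17350 bp in neurons, of which 11500 bp lay inside the progenitor domain. It had p300 over 21000 bp in progenitors and none in neurons. The Surf cluster with the ribosomal gene Rpl7a had 21400 and 19050 bp and no CHD4 in either state, with p300 over 13000 bp in progenitors. Wide marks also lay at Abt1 with neighbouring tRNA genes (18500 and 12400 bp), at Rps10 and Nudt3 (17600 and 12300 bp), at Midn, Atp5d and Cbarp (16900 and 18900 bp) and at Stac3, Ndufa4l2 and Shmt2 (16400 and 15550 bp).

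Among the other domains of the widest 20 were those of several regulators. The domain of 17450 bp in the gene Nr2f2, which encodes the nuclear receptor COUP-TFII, kept its width (17800 bp), had no CHD4 in progenitors and had 14750 bp under CHD4 in neurons. That of Bahcc1, which encodes a chromatin protein, kept its width as well (17400 and 17450 bp), while the part under CHD4 went from 17400 to 6650 bp. Zeb2, a zinc finger homeobox gene of neural crest and neurons, had 15750 and 10750 bp and neither CHD4 nor p300. A domain of 17350 bp over a cluster of 5S ribosomal RNA genes on chromosome 8 had no neuron peak and no CHD4 or p300.

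Among the domains that were still listed in neurons, those of Tle5 and Tle2 had the lowest ratio, 0.19. A domain of 15000 bp with no annotated gene at chr11:120302901-120317900 followed at 0.23, although CHD4 covered 14500 bp of it in progenitors and 14650 bp in neurons. Irf2bpl stood at 0.25, Pip5k1c and Tjp3 at 0.27, Aldoc and Pigs at 0.28, and N4bp3 at 0.37. Npas3, a bHLH-PAS factor gene, was at 0.40 (9350 bp, then 3700 bp). The histone pair H2bc18 and H3c13 was at 0.41 (13650 bp, then 5650 bp), and here CHD4 was listed in neurons alone, over 12650 bp. In 7 of these 8 domains CHD4 was present in progenitors, and in 7 of 8 in neurons, against 73.8% and 69.0% of all domains.

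The 42 domains with no listed neuron H3K4me3 peak differed in their signal. Besides the 5S cluster and Gadd45b, the widest were at Rara (15400 bp), at the Rn4.5s genes on chromosome 6 (15200 bp), at the histone genes H3c14, H3c15, H2ac18 and H2ac19 (13150 bp), across Nes and Bcan (12000 bp), in Fbxw8 (11900 bp) and at the long noncoding gene Neat1 (11500 bp). The Nes domain, at the gene of the progenitor intermediate filament nestin, lay nearly whole under CHD4 in both states (11750 and 12000 bp). Its H3K4me3 was weak in progenitors already, at a percentile of 12.3 for the total signal and 0.0134 for the mean per base. Rara, which encodes a retinoic acid receptor, had 2 domains. The wider one, over an internal annotated start, was not listed in neurons, and the other kept 8600 of 10100 bp. Their mean signal per base in progenitors was at percentiles of 1.59 and 31.2. Malat1, the neighbour of Neat1, kept 12000 of 13100 bp.

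Of the 42, 28 had CHD4 in progenitors and 26 (61.9%) in neurons, and 8 had neuron p300. Over all domains these shares were 73.8%, 69.0% and 16.8%. Their median percentile in the progenitor list was 44.1 for total signal and 0.984 for mean signal per base, against 94.4 and 30.2 for the domains within 1.5-fold. The weakest peak in the H3K4me3 lists had a total signal of 69131 in progenitors and 144614 in neurons, on a scale that may differ between the lists. Low signal thus went together with absence from the neuron list, and its part in the result was not tested.

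The 10 widened domains shared no family. The highest ratio was at Dbp, which encodes a circadian bZIP factor (9600 bp, then 21050 bp, ratio 2.19). The neighbouring domain at Sphk2, Rpl18 and Fam83e (11500 bp, ratio 1.83) met the same neuron peak of 21050 bp. The Dbp domain ends at chr7:45712600 and its neighbour starts at chr7:45713251. The neuron peak covered 9600 bp of the first and 10450 bp of the second. Both ratios thus divide 1 neuron peak that spans the pair by the width of each domain alone, and they show no widening over the pair. Ccdc85c stood at 2.02, and a domain within Hoxa3 that holds no coding start at 1.81 (12100 bp, then 21950 bp). The neuron peak covered only 7000 bp of the Hoxa3 domain. Its progenitor H3K4me3 was weak, at a percentile of 13.4 for the total signal and 0.0268 for the mean per base. Mdga1 (1.69), Cxxc5 (1.68), Tfap2a, an AP-2 factor gene of placodes and neural crest (1.68), and Plxnb2, a semaphorin receptor gene (1.59), followed. CHD4 was in 6 of the 10 in progenitors and in 8 in neurons, against 73.8% and 69.0% of all domains.

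Lists of genes for the pathways of these cells were then compared with the domains. The lists were chosen with earlier results of these data known, so their shares are a description and no test of an excess. The largest share belonged to the NFI, Meis, Pou3f and Zic genes, regulators of neural progenitors and their differentiation, with 8 of 16 at a domain where 2.24% of all genes were. Beside Pou3f3, Nfib and Meis2 these were Meis1 (13550 bp, then 13700 bp), Pou3f4 (8700 and 5350 bp), Pou3f2 (8100 and 8900 bp) and the neighbours Zic1 and Zic4, which share 1 domain (8550 and 10000 bp). The median ratio of the 7 domains was 1.06, against 0.870 for all, and Pou3f4 alone had narrowed at least 1.5-fold. CHD4 lay in 4 of the 7 in progenitors and 5 in neurons, and neuron p300 in none, against 73.8%, 69.0% and 16.8% of all domains. Meis1 and Nfia also had domains inside the gene without a start, of 12850 and 10050 bp, with ratios of 0.49 and 0.48.

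Of 39 otic progenitor regulators 6 were at a domain. Sox2 was joined by Nr2f1, which encodes COUP-TFI (13800 bp, then 15000 bp), Irx5 (8700 and 9050 bp) and the genes of the Id family, which block bHLH factors. Id2 kept its width (7850 and 7650 bp), Id1 narrowed from 9700 to 5800 bp, and Id3 (11000 bp) was not listed in neurons. All 6 had CHD4 in both states, 5 had p300 in progenitors, and Sox2 and Irx5 had it in neurons. Over all domains these shares were 63.1%, 62.0% and 16.8%.

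The Id genes also stand in a list of BMP pathway and Id genes, of which 5 of 15 were at a domain. The others were Smad6, an inhibitory Smad gene (10000 bp, then 7650 bp), and the ligand gene Bmp7 (9000 and 8800 bp). All 5 had CHD4 in both states and p300 in progenitors, and none had p300 in neurons. Over all domains these shares were 63.1% for CHD4 in both states, 62.0% for progenitor p300 and 16.8% for neuron p300. The Id domains are the same ones already counted among the otic regulators. Other Sox genes were Sox8, whose domain shared with Lmf1 narrowed from 15100 to 6450 bp, and Sox11 (8250 and 8700 bp), so that 3 of 19 Sox genes were at a domain.

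Of 22 Notch pathway genes 4 were at a domain: the ligand gene Dll1, the effectors Hes5 (10050 bp, then 8250 bp) and Hey1 (7750 and 4700 bp), and the feedback inhibitor Nrarp (8300 and 7850 bp). The neuron peak at Nrarp covered only 3650 bp of the domain. All 4 had CHD4 and p300 in progenitors, as did 59.6% of all domains. In neurons p300 was listed at Dll1 alone, and CHD4 at all but Nrarp, where 16.8% and 69.0% of all domains had them. The segmentation gene Hes7, a bHLH gene outside that list, kept its width (11250 and 11450 bp).

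Of 18 genes of FGF and ERK signalling 3 were at a domain, and none kept its width. Dusp6, the ERK phosphatase gene (10200 bp), and Ccnd1, the cyclin D1 gene (8200 bp), had no neuron peak, and the ETS factor gene Etv1 went from 8400 to 5150 bp. The mean signal per base of the Ccnd1 domain was at a percentile of 0.442 in the progenitor list, and that of Dusp6 at 41.7. Of 29 proneural and neuronal transcription factor genes 2 were at a domain, Ebf3 (12150 bp, then 7700 bp, with neither CHD4 nor p300) and Scrt1 (7850 and 7650 bp).

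**Figure D3:**
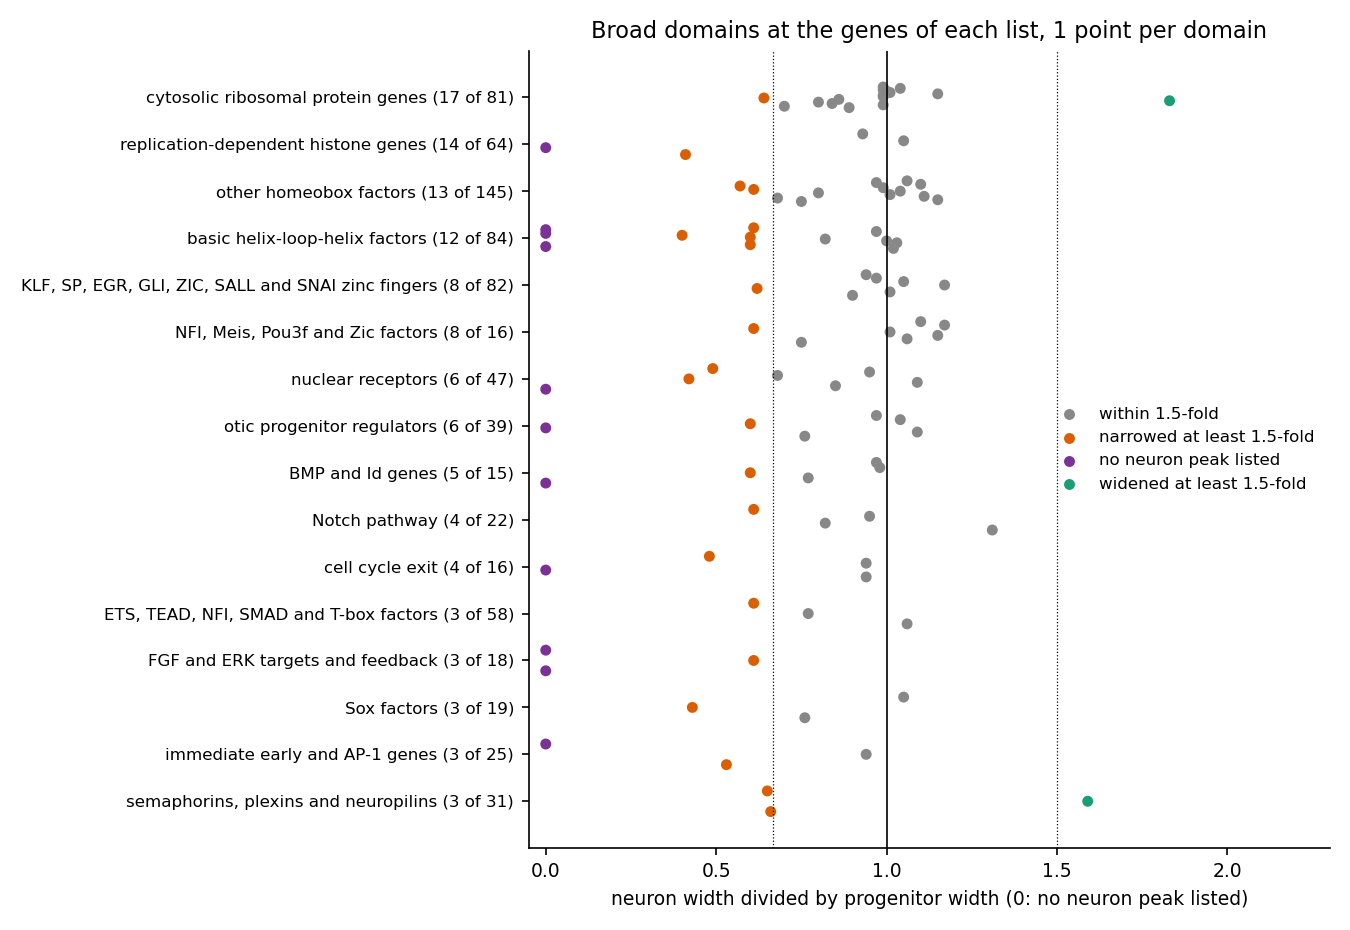
Ratio of neuron to progenitor width for each domain at the genes of 16 lists with at least 3 genes at a domain (number of genes at a domain of all genes in the list in brackets), with equal width as a solid line and the 1.5-fold limits dotted. Points at 0 have no neuron peak. Domains of ribosomal protein and NFI, Meis, Pou3f and Zic genes gather near 1, and those of bHLH genes spread from 0 to 1.03.

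Cell cycle genes were at both ends. Of 16 genes of cell cycle exit 4 were at a domain: Cdkn1b (16950 bp, then 15950 bp), Gadd45b, the antiproliferative gene Btg2 (7950 and 7450 bp) and the inhibitor gene Cdkn2d (7850 and 3750 bp). Of 32 genes of cell cycle progression there were 2, Ccnd1 and E2f2, and E2f2 went from 12100 to 7450 bp. Of the bHLH genes, 3 domains were not listed in neurons (Id3, Scx, Olig2), 4 had narrowed (Id1, Mnt, Npas3, Hey1) and 5 were within 1.5-fold. Scx, a tendon and mesenchyme factor gene, lay in a domain of 8950 bp almost fully under CHD4 (8900 and 8950 bp) and p300 (8100 and 8150 bp) in both states. This domain also overlapped the gene Bop1. Its progenitor H3K4me3 was weak, at a percentile of 5.15 for the highest signal and 0.669 for the mean per base. Tcf4, an E-protein gene, had 4 domains on chromosome 18, of which 3 lay inside the gene.

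Ribosomal protein genes had 17 of 81 members at a domain, in 16 domains with a median ratio of 0.988, and 14 of these stayed within 1.5-fold. The exceptions were Rpl18 and Rps28 (10350 bp, then 6650 bp). The Rpl18 domain, shared with Sphk2, counts as widened only through the neuron peak that also spans the Dbp domain. Replication-dependent histone genes had 14 of 64 members at a domain, gathered in 4 clusters: 1 was not listed in neurons, 1 had narrowed and 2 kept their width, at H2ac10, H3c8 and H4c8 (9600 and 10050 bp) and at H2ac7, H2ac8, H2bc7, H2bc8 and H3c4 (8450 and 7900 bp). The copies of histone and 5S RNA genes are nearly alike in sequence, and the sources used here do not say how reads that match several copies were placed. Of 47 nuclear receptor genes 6 were at a domain, among them Thra, which encodes a thyroid hormone receptor (13600 bp, then 5750 bp, beside another domain shared with Nr1d1), and Rxrb (13200 and 12550 bp).

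Lists of neuronal genes gave few domains, and at a base share of 2.24% lists of this size would hold few. None of 30 synapse and ion channel genes, 14 neurotrophin and GDNF family genes or 23 Slit, Robo and netrin genes had one. Of 28 neuronal cytoskeleton genes Tubb2b, a neuronal tubulin gene, had one (8350 bp, then 7850 bp). Among axon guidance genes there were 3 of 31 semaphorin and receptor genes (Sema4b and Sema6a, which narrowed to ratios of 0.66 and 0.65, and Plxnb2) and 2 of 22 Eph and ephrin genes (Efna4 and Efna3, at 0.78 and 0.48). Of 15 genes of NuRD subunits Mbd3 had one (8700 bp, then 4550 bp).

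CHD4 was listed in most of the domains, in both states. In progenitors 276 of 374 (73.8%, 69.0 to 78.2) met a CHD4 peak, by 1 bp or more, against 27.2% of all progenitor H3K4me3 peaks, and in neurons 258 (69.0%, 64.0 to 73.6), against 19.8%. CHD4 was in 236 domains (63.1%, 58.0 to 68.0) in both states, against 17.3% of all peaks. It was in 40 (10.7%, 7.75 to 14.3) in progenitors alone, near the 9.93% of all peaks, and in 22 (5.88%, 3.72 to 8.77) in neurons alone, against 2.46%. Within the domains the bases under CHD4 went from 1833 kb (46.9% of the width) to 2092 kb (53.6%). CHD4 peaks were wider in neurons over the whole list as well, with a median of 5200 bp against 3400 bp.

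p300 was listed in 232 domains in progenitors (62.0%, 56.9 to 67.0), against 18.4% of all H3K4me3 peaks, and in 63 in neurons (16.8%, 13.2 to 21.0), against 2.41%. The bases under it went from 1498 to 435 kb. The neuron p300 list is itself the shorter one, with 965 peaks against 3144. When the progenitor list was trimmed to its 965 peaks of highest total signal, 36.1% of the domains held a p300 peak in progenitors. How far depth or the threshold sets the length of a list was not tested.

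Since a wide region meets more peaks by its length, the same was measured in a 2 kb window at the position of highest H3K4me3 signal of every peak. CHD4 fell in this window in 64.7% of the domains in progenitors (59.6 to 69.5) and 64.4% in neurons (59.4 to 69.3), against 57.2% (52.0 to 62.3) and 53.2% (48.0 to 58.4) of the next 374 peaks by width and 26.5% and 19.4% of all peaks. p300 fell in it in 52.1% (46.9 to 57.3) and 13.9% (10.6 to 17.8), against 42.5% (37.4 to 47.7) and 7.49% (5.03 to 10.6) of the next 374 and 17.6% and 2.21% of all. The shares went down over the width classes of the whole list, to 13.5% for CHD4 and 7.33% for p300 in progenitors in the narrower 50% of peaks. The domains thus lie at the upper end of a trend that runs through the whole list, and the windows of the widest 2.5% and of the next 2.5% had much the same shares of CHD4 (63.1% and 66.3% in progenitors).

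**Figure D4:**
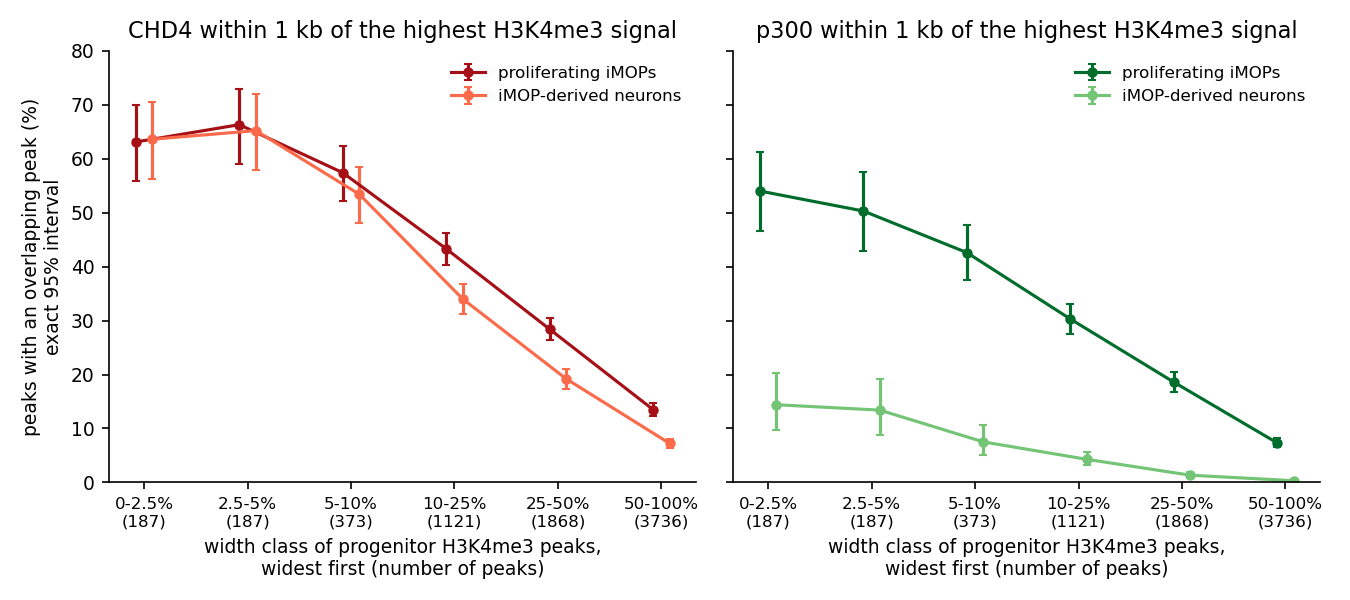
Share of progenitor H3K4me3 peaks (y axis, %, with exact 95% intervals for counting error) that have a CHD4 peak (left) or p300 peak (right) in the 2 kb window at their highest signal, by width class with the widest on the left and the number of peaks in brackets. The classes 0-2.5% and 2.5-5% are the 374 domains. CHD4 shares of the domains are alike in both states, and p300 shares are lower in neurons in every class.

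CHD4 and p300 were often listed in the same domains. In progenitors 223 domains had both (59.6%, against 17.1% of all peaks), 53 CHD4 alone (14.2%, against 10.1%), 9 p300 alone (2.41%, against 1.34%) and 89 neither (23.8%, against 71.4%). In neurons 63 had both (16.8%, against 2.41%), 195 CHD4 alone (52.1%, against 17.4%) and 116 neither (31.0%, against 80.2%), and none had p300 without CHD4 (0 of 374, upper limit 0.981%), which is also true of all 7472 peaks. Where both were present, their peaks overlapped each other inside the domain in 222 of 223 cases in progenitors and 63 of 63 in neurons. How far this follows from the width of the peaks was not tested. Where listed, CHD4 and p300 took medians of 63.5% and 57.7% of a domain in progenitors, and 87.6% and 69.1% in neurons. Of the 223 domains with both, 59 (26.5%) had both in neurons, 143 had CHD4 alone and 21 had neither. Of the 89 with neither, 70 again had neither, 17 had CHD4 alone and 2 had both.

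**Figure D5:**
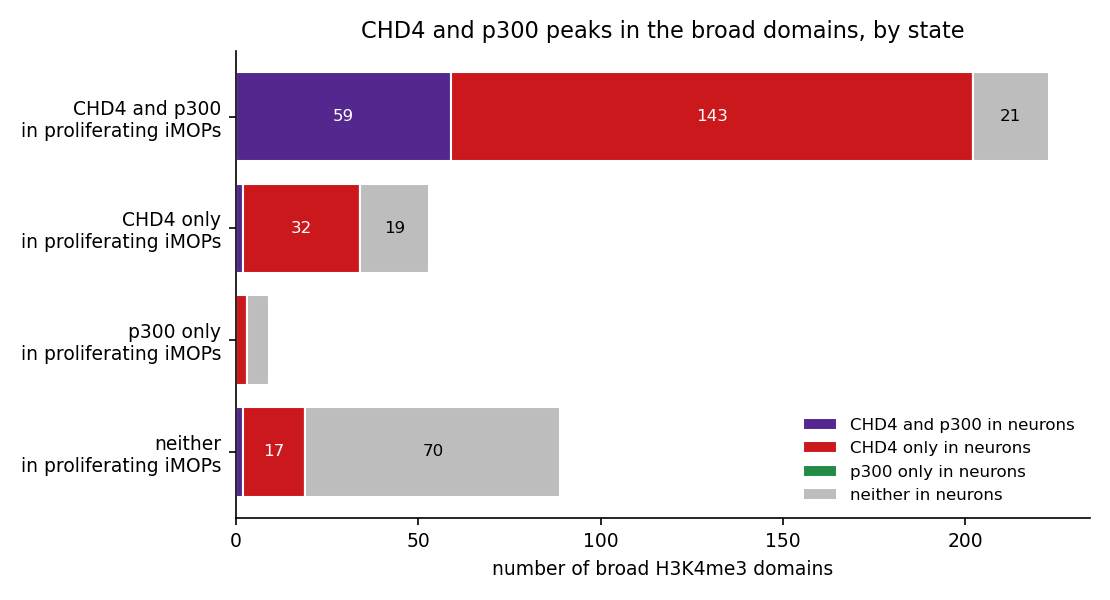
Number of domains (x axis) by the CHD4 and p300 peaks they held in progenitors (rows), with colours for what they held in neurons. The largest block, 143 domains, had CHD4 and p300 in progenitors and CHD4 without p300 in neurons.

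The change in width was then set beside what a domain held. The median ratio was 0.868 for domains with CHD4 and p300 in progenitors, 0.891 with CHD4 alone and 0.804 with neither, and the shares with no neuron peak were 8.52% (5.21 to 13.0), 17.0% (8.07 to 29.8) and 15.7% (8.88 to 25.0). Where p300 was listed in both states the median was 0.873, where it was listed in progenitors alone 0.871 and where it was listed in neither state 0.849. Domains with no CHD4 in either state (76, or 20.3%, against 70.3% of all peaks, among them those of Zeb2, Sp8, Sall3, Tfap2a and Pou3f4) had a median ratio of 0.778 and were not listed in neurons in 13 cases (17.1%). They also had a lower signal, at a median percentile of 12.8 for the mean per base, against 26.8 for the 236 domains with CHD4 in both states.

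CHD4 covered the most bases at Sox2 in progenitors (17650 bp), then at Bahcc1, in the chromosome 15 domain without a gene, at Midn (16050 bp), at Tle2 and Tle5 (15400 bp), at Irf2bpl (15150 bp), at Mir9-2 (15050 bp) and at Pou3f3 (14800 bp). In neurons the chromosome 15 domain led, before the Ifi30 and Pik3r2 cluster (18950 bp), Sox2 (17000 bp), Pou3f3 (16950 bp), Midn (16850 bp), Rara (15400 bp), Gadd45b and Nr2f2. These are among the widest domains, and coverage in bases is bounded by width. Where CHD4 was listed, its peaks took a median of 63.5% of the width in progenitors and 87.6% in neurons.

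p300 in progenitors covered the most bases at Ifi30 and Pik3r2, then at Dalrd3, Ndufaf3 and Wdr6 (16850 bp), in the chromosome 11 domain without a gene (14600 bp), at Git1 and Ankrd13b (14350 bp), in the chromosome 15 domain (13700 bp), at Eef2 and Dapk3 (13300 bp), inside Nfic (13250 bp) and at Midn (13100 bp). In neurons, after the chromosome 15 domain, it covered much inside Fbxw8 (11900 bp, the whole domain), at Dll1 (11650 bp), at the fatty acid desaturase gene Scd2 (10750 bp), at Spsb4 (10650 bp), at Gapdh and Iffo1 (10100 bp) and at Gse1 (9400 bp). Scd2 is one of the cases with more p300 in neurons, up from 3400 bp. The Fbxw8 domain had no listed neuron H3K4me3 peak but lay wholly under CHD4 and p300 in both states. Its progenitor H3K4me3 was itself among the weakest in the list, at a percentile of 0.127 for the highest signal and 0.0401 for the mean per base.

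CHD4 and p300 peaks in the domains were wide and often lay away from the start. The median width of CHD4 peaks that met a domain was 5500 bp in progenitors and 9150 bp in neurons, against 3100 and 4700 bp of those at other progenitor H3K4me3 peaks. The highest CHD4 signal was within 1 kb of an annotated start in 59.5% of cases in progenitors (52.7 to 66.0), against 90.0% (88.2 to 91.6) at other H3K4me3 peaks that hold a start. For p300 the shares were 60.1% (52.7 to 67.2) and 90.6% (88.4 to 92.5) in progenitors, and 39.0% (24.2 to 55.5) and 67.1% (54.9 to 77.9) in neurons. A narrow peak leaves little room away from its start, so these shares follow in part from the width. The downstream blocks at Sox2 and Gadd45b are examples.

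The domains reached further downstream of the start than upstream of it. Of 157 domains with a single gene whose start lay inside them, 111 (70.7%, 62.9 to 77.7) ran further downstream of the start than upstream, with medians of 5867 and 3786 bp. In 30 of them the whole gene was covered, so that the downstream part can run past the end of the gene. For 140 of them a single neuron peak covered the same start. The distance from the start to the upstream edge changed by a median of -500 bp (neurons minus progenitors, medians 2388 and 3569 bp), and that to the downstream edge by 25 bp (medians 5557 and 5733 bp). The upstream edge alone had pulled back in 55, both edges in 47, the downstream edge alone in 18 and neither in 20. Neither the downstream share nor these edge counts are given here for other H3K4me3 peaks. They are therefore not shown to be particular to the domains.

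The 52 domains without a coding start were more often missing in neurons, as were such peaks in the whole list. Their median ratio was 0.583, against 0.874 for domains with 1 gene and 0.976 for those with 3 or more, and 19 of the 52 (36.5%, 23.6 to 51.0) had no neuron peak, against 13 of the 197 with 1 gene (6.60%). In the whole list these counts were 246 of 513 and 1565 of 5694. Of the 52, 28 lay inside or across a coding gene, such as Nes, Fbxw8, Trio, Nfic, Ahdc1, Zfhx3 and Zbtb20. Their signal was also low, with a median percentile of 7.51 for the highest signal, against 48.6 for domains with 1 gene. CHD4 was in 35 of them in progenitors and 31 in neurons, and p300 in 28 and 11.

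Several of these held other kinds of gene. tRNA genes lay in 13 of all 374 domains (3.48%, 1.86 to 5.87), against 1.11% (0.886 to 1.38) of all progenitor peaks. None of the 13 was missing in neurons, where 11.2% of all domains and 25 of 83 tRNA peaks in the whole list were. Small nucleolar RNA genes lay in 11 (2.94%, 1.48 to 5.20), against 1.02% of all peaks, and long noncoding RNA genes in 122 (32.6%, 27.9 to 37.6), against 18.1% (17.2 to 19.0), where again a longer region meets more genes. The 2 domains over genes of the annotation's rRNA class, the 5S cluster and Rn4.5s (a small rodent RNA that is not part of the ribosome), were the 2 such peaks in the whole list, and neither was listed in neurons.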

How the data were processed

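The peak lists are those the authors deposited, 1 for each antibody and state, in the 6 columns of SEACR output. Bowtie2, SEACR, deepTools and the mm10 build were used, per the submitters' processing notes, as listed there without versions or roles. Settings and the use of the IgG libraries are not stated there. The total and highest signal of each peak are the authors' values on an unstated scale, and were used for ranks within a list alone. Start and end positions, as deposited, run in steps of 50 bp, with a handful of exceptions, and are printed counted from 1. Whether a list pools several libraries is not given, and each was taken as 1. Depth is unknown, as the lists hold no read numbers.

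Members and gene lists were chosen with earlier results of these data known. Overlap meant at least 1 bp. Gene starts came from a RefSeq promoter table of GRCm38.p6 (17491 genes). For 4392 genes without an entry, all those of chromosome 18 among them, either end of the gene stood in for the start. The text names the 20 widest domains, the 8 with the lowest and highest ratios, the 8 widest absent ones, the 8 with most CHD4 or p300 bases in each state, and every domain at genes of 7 of the 36 lists (otic, Notch, neuronal factor, NFI to Zic, Sox, FGF, BMP), with examples of others. Of these, 1 domain is not reported here. Neat1's neighbour Malat1, the domains inside Meis1 and Nfia, Hes7, Scx, Tcf4, Mbd3 and the intragenic examples were chosen after their values were seen. Python 3.11.15, numpy 2.4.6, pandas 2.3.3, SciPy 1.17.1 and matplotlib 3.10.9 were used. The overlap and width functions were tested on simulated lists. Alternatives were other limits on width, peaks joined over 1 kb gaps, ranking by total signal, other width measures and overlap rules, stronger or trimmed lists, main chromosomes alone and other gene windows.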

Additional observations from a re-analysis of the deposited data

How the results depend on the processing

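Of 62 values under the alternatives, 39 stayed within the interval of the reported value (or within 1.5-fold for the number of genes). With the widest 10% the share narrowed was 13.8%, the shares with CHD4 68.3% and 61.8% and with p300 54.4% and 12.4% (progenitors, then neurons), and the genes numbered 928. With the widest 2.5% progenitor p300 was 69.5% and the genes 270. With the same number of peaks of highest total signal, of which 148 were among the domains, 7.49% had narrowed, 1.60% had no neuron peak, neuron CHD4 was 75.7% and progenitor p300 68.2%. The share narrowed was 24.1% by the widest single neuron peak, 8.29% at a 2-fold limit and 27.3% with width divided by its list's median. With the stronger 50% of each list, CHD4 shares were 57.0% and 47.6% and p300 shares 46.8% and 8.29%. With at least 50% of the peak inside the domain, neuron CHD4 was 61.2%. In the 2 kb window progenitor CHD4 was 64.7% and progenitor p300 52.1%, and with p300 lists of equal size progenitor p300 was 36.1%. The cause of these shifts was not tested beyond what each setting removes. Joining peaks over 1 kb gaps and main chromosomes alone moved none of the values beyond those limits. No paired analysis was possible because each group has 1 library.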
